A study of Homo sapiens with 26 samples.

Results

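The late addition of dexamethasone to quizartinib was followed in 6 of the 26 libraries of the study, which were picked by their labels alone. All of them came from MV4-11, an established human acute myeloid leukaemia line driven by a mutant FLT3 receptor tyrosine kinase, so the values describe 1 cell line. In the quizartinib group, 3 libraries were made from cells held for 5 days in 10 nM quizartinib, an inhibitor of the FLT3 kinase. In the combination group, 3 libraries were made from cells held in 10 nM quizartinib over the same 5 days, with 100 nM dexamethasone, a synthetic glucocorticoid, joining on day 3. Both groups thus carried quizartinib, and both held only cells that had survived and been isolated. Beside them stood 4 groups of 3 libraries at 48 h, given DMSO, 100 nM dexamethasone, 10 nM quizartinib, or quizartinib and dexamethasone at these doses. No group of 5 days with DMSO or with dexamethasone alone was analysed here. Whether the replicates came from separate cultures is not stated in the labels, and p-values accordingly reflect only how far these libraries scatter, which may be technical.

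Glucocorticoids bind the glucocorticoid receptor, encoded by NR3C1, which waits in the cytoplasm with chaperones and, once bound, enters the nucleus and acts as a transcription factor. In cells of the blood it raises feedback and anti-inflammatory genes such as FKBP5, TSC22D3 and PER1, lowers many inflammatory genes, and in lymphoid cells it can trigger death through BCL2L11. FLT3 drives leukaemic growth through STAT5, the MAPK cascade and the PI3K-AKT pathway, which holds the FOXO transcription factors out of the nucleus.

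The 6 libraries held between 14795190 and 21325569 counts over 16430 gene entries. The first principal component, with 48.8% of the variance, placed all 3 combination libraries apart from all 3 quizartinib libraries, and the second, with 17.5%, set combination replicate 1 apart from replicates 2 and 3. All 13 myeloid markers were measured in both groups, and their summed level ran from 2522 to 2674 CPM (read counts relative to the library's size, TMM-normalized) with quizartinib and from 1808 to 1929 CPM with the combination. LYZ, whose levels are given below, fell by about as much as this sum. Of the 13 markers 2 were called higher and 4 lower, beside 4.6% and 4.04% of all genes, with a median log2 fold change of -0.15. CD33, a surface marker of the lineage, stood at 102, 105 and 106 CPM against 104, 108 and 108 CPM. Of the markers of other cells, 2 of 11 T and NK cell genes were measured, at a sum of 11.4 to 16.5 CPM against 12.0 to 13.3 CPM, and 6 of 8 B cell genes, at 2.65 to 3.28 CPM against 3.92 to 4.85 CPM. For erythroid cells and megakaryocytes 2 of 11 were measured, at 9.78 to 11.3 CPM against 6.47 to 7.75 CPM, and for fibroblasts and epithelium 3 of 11, at 7.72 to 9.71 CPM against 10.8 to 14.8 CPM. Among these, the B cell receptor inhibitor CD22 had no read with quizartinib and 56 with the combination, at least 19.7-fold higher, while PAX5, a factor of B cell identity, was not called (0.35 ± 0.28). KRT18 was called higher (0.68 ± 0.18) and ITGA2B lower (-1.16 ± 0.29), and each lost its call without quizartinib replicate 2 (adjusted p = 0.071 and 0.11) or combination replicate 3 (0.11 and 0.096). KRT18 lost it without quizartinib replicate 3 too (0.11), and ITGA2B without combination replicate 2 (0.073). The part of these small sums in the results was not tested. The libraries numbered 3 stood apart in all 4 groups of 48 h: their summed level of 17 immediate early genes was 1622 to 4132 CPM, against 366 to 559 CPM in replicates 1 and 2, 1508 to 2121 CPM with quizartinib at 5 days and 817 to 1213 CPM with the combination. In bulk RNA, fewer cells of a kind and less RNA per cell cannot be told apart.

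With late dexamethasone 14 of 24 glucocorticoid receptor targets rose, and 11 of 11 MHC class II genes fell together with lysozyme and MPEG1. The 8 of 8 listed genes near silence that rose had been picked because dexamethasone raised them in these data at 48 h. Calls rest on edgeR's quasi-likelihood test, with the p adjusted over all genes by Benjamini and Hochberg and required to lie under 0.05. By that rule 755 genes (4.6% of those tested) were higher and 664 (4.04%) lower in the combination than in quizartinib. Of these, 274 were at least 2-fold higher and 185 at least 2-fold lower, and the median log2 fold change over all genes was -0.01. The 3 libraries of one group lay wholly above or below the other for 750 of the 755 higher and 662 of the 664 lower genes, while over all genes 16.1% lay wholly above and 16.7% wholly below. Combination replicate 1 was the nearest of its group to the quizartinib libraries in 60.1% of the higher and 58.1% of the lower genes. Left out, it gave 643 higher and 574 lower genes. The counts fell to 467 and 368 without quizartinib replicate 1 and to 463 and 355 without combination replicate 2. Lower genes numbered 426 without quizartinib replicate 3 and 396 without combination replicate 3. A fit of the 6 libraries alone called 1212 of the 16430 genes higher and 1218 lower. One over all libraries but the replicates 3 of 48 h, which stood apart, called 1403 and 1355. The list counts below are to be read beside these totals of the same fit.

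**Figure D1:**
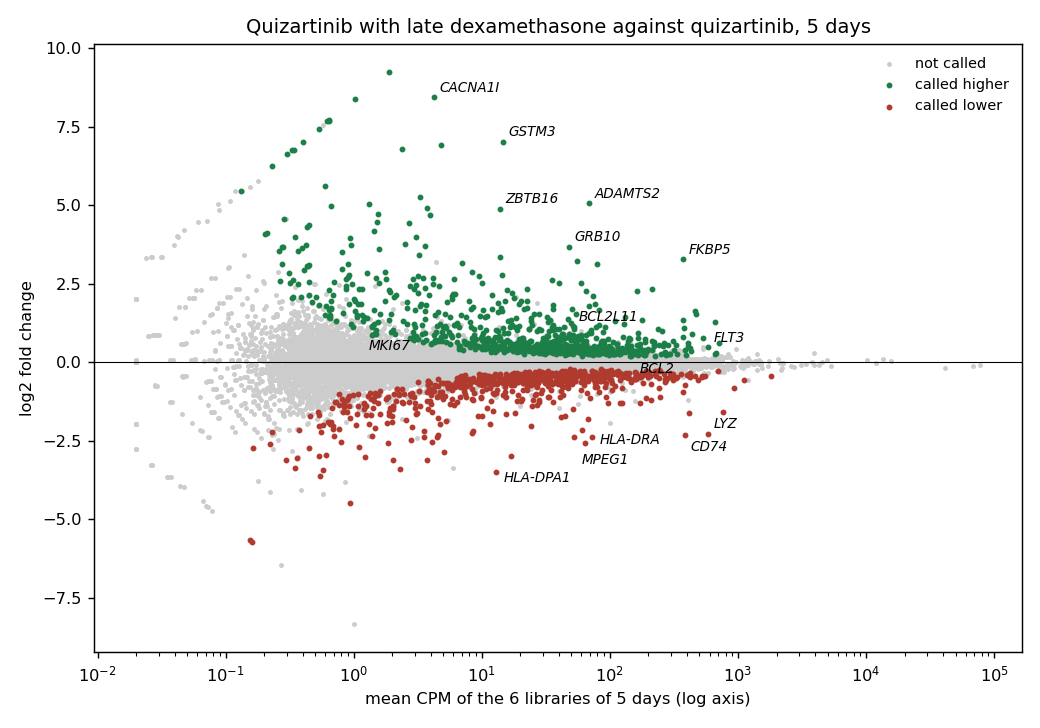
Log2 fold change of the combination over quizartinib at 5 days (vertical axis) against the mean level over the 6 libraries in CPM (horizontal log axis), 1 point per gene. The 755 genes called higher are green, the 664 called lower are red and the rest grey; ADAMTS2 and FKBP5 stand high above 0 at well-measured levels, and LYZ, CD74 and MPEG1 far below it.

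The feedback genes of the receptor answered in every library. FKBP5, a co-chaperone that lowers the receptor's affinity for hormone (chr6:35573585-35728583, minus strand, GRCh38), stood at 67.6, 70.7 and 68.8 CPM in the quizartinib libraries and at 597, 725 and 701 CPM in the combination. The groups were far apart, with a log2 fold change of 3.29 ± 0.08 and an adjusted p of 7.1e-14. PER1, a clock gene with receptor sites of its own, went from 18.0, 16.1 and 19.1 CPM to 86.9, 111 and 109.6 CPM, a log2 fold change of 2.53 ± 0.22 (adjusted p = 9.7e-07). TSC22D3, which encodes the anti-inflammatory leucine zipper protein GILZ, went from 72.0, 61.5 and 79.1 CPM to 304, 366 and 402 CPM, a log2 fold change of 2.33 ± 0.53 (adjusted p = 0.009). For these 3 genes no library of the combination came near a quizartinib library. NR3C1 itself was not called, at 113, 117 and 132 CPM against 123, 149 and 143 CPM (log2 fold change 0.20 ± 0.09, adjusted p = 0.22), and its groups overlapped. Among the receptor and its chaperones, 1 of 18 measured genes was called, which was FKBP5.

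Of 24 measured classical receptor targets, 14 were called higher and none lower, with a median log2 fold change of 1.45 beside -0.01 over all genes, and the fit of the 6 libraries alone called 16 higher and 2 lower. They included the transcription factor KLF9 (2.27 ± 0.18), the mTORC1 inhibitor DDIT4 (2.62 ± 0.61), the insulin receptor substrate IRS2 (1.84 ± 0.36), the pyruvate dehydrogenase kinase PDK4 (2.42 ± 0.32) and the zinc-binding protein MT2A (1.35 ± 0.27), all as log2 fold changes. DDIT4 was at 9.20, 9.06 and 11.3 CPM with quizartinib and 50.8, 66.5 and 64.1 CPM with the combination, and its adjusted p of 0.011 became 0.054 without quizartinib replicate 1 and 0.05 without replicate 2. The inhibitors of NF-kB within the list moved too: NFKBIA stood at 50.1, 46.5 and 51.9 CPM against 92.7, 109.9 and 119 CPM, and TNFAIP3 at 13.0, 11.1 and 14.8 CPM against 18.1, 46.3 and 49.4 CPM. Combination replicate 1 was the lowest of its group for both, and TNFAIP3 lost its call without quizartinib replicate 2 (adjusted p = 0.052), combination replicate 2 (0.056) or combination replicate 3 (0.057). Not every classical target was called. The phosphatase gene DUSP1 stood at 75.3, 57.7 and 109 CPM against 58.2, 89.7 and 108 CPM and the kinase gene SGK1 at 7.05, 6.14 and 10.47 CPM against 4.53, 10.1 and 8.04 CPM, each with overlapping groups.

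**Figure D2:**
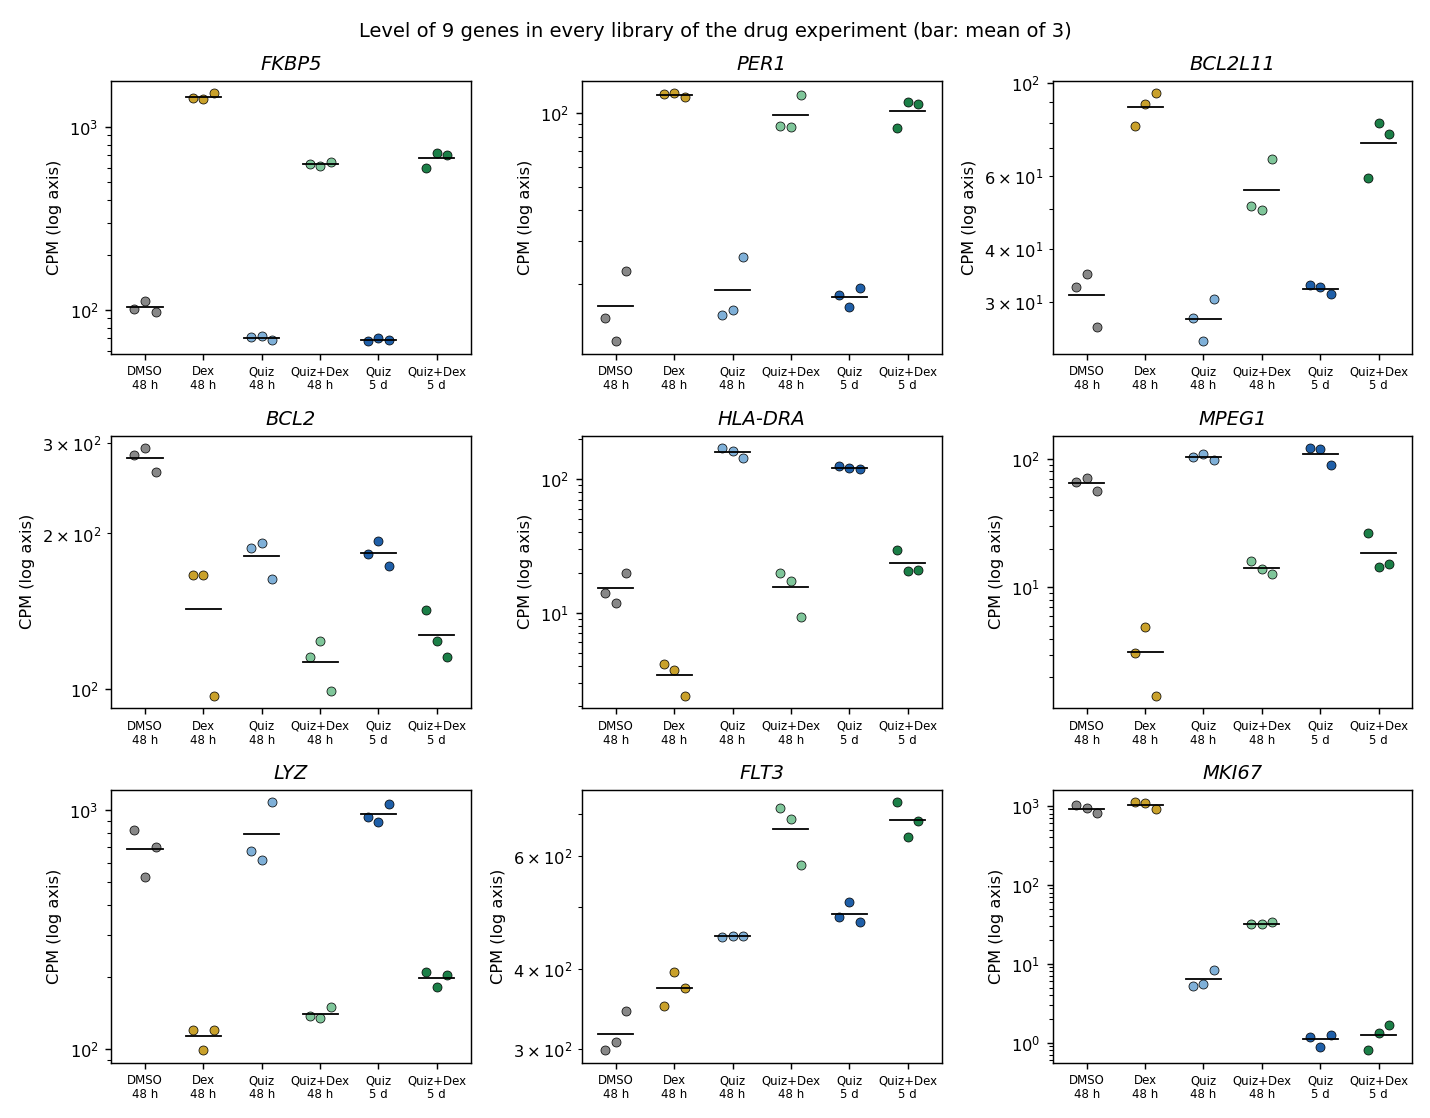
Levels of 9 genes in CPM (log axes that differ between panels) in the 18 libraries of the 6 groups; points are libraries and bars are group means. With late dexamethasone FKBP5, PER1, BCL2L11 and FLT3 lay above quizartinib at 5 days and BCL2, HLA-DRA, MPEG1 and LYZ below it, while MKI67 was near 1 CPM in both groups of 5 days.

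The 12 highest genes were ranked by fold among those with at least 5 CPM in the combination, which favours genes near 0 with quizartinib. CACNA1I, a subunit of a T-type calcium channel, had 1 read in the 3 quizartinib libraries together and stood at 6.45, 10.00 and 8.85 CPM in the combination, a ratio of 473 with a 95% counting interval from 84.8 to 1.87e+04. GSTM3, a glutathione transferase, went from 0.0564, 0.364 and 0.212 CPM to 28.02, 29.6 and 29.2 CPM, a log2 fold change of 7.03 ± 0.36. MFGE8, a secreted bridge between dying cells and phagocytes, went from 0.169, 0.0520 and 0 CPM to 7.01, 10.6 and 10.9 CPM, a log2 fold change of 6.93 ± 0.55. Their highest value in a quizartinib library was 0.364 CPM, for GSTM3. ADAMTS2, a procollagen-processing protease, was low but measured with quizartinib, at 3.95, 3.70 and 4.23 CPM, and reached 109, 146 and 145 CPM (log2 fold change 5.07 ± 0.16, adjusted p = 8.6e-13). ZBTB16, the zinc finger factor PLZF, went from 0.846, 0.677 and 1.16 CPM to 16.7, 35.1 and 29.02 CPM, and GRB10, an adaptor that binds the insulin receptor, from 6.04, 6.45 and 8.35 CPM to 72.3, 95.9 and 99.4 CPM. In each of these, combination replicate 1 held the lowest value of its group, for ZBTB16 16.7 CPM. The other genes of the 12 highest were FSIP2, a sperm sheath protein, the growth factor PDGFD, the Notch ligand DLL4, LINC02600, TMIGD3 and SERHL2, with log2 fold changes from 3.72 to 5.27 and no overlap between groups. Of 8 genes chosen because dexamethasone had raised them from near silence in these data at 48 h, 8 were called at 5 days. Their median log2 fold change was 5.94, or 5.06 with CD163 at the bound given next. The fit of the 6 libraries alone called 7 of them, and fits that left out 1 library called 7 or 8. Further members of that list were CYP19A1 (aromatase), with 2 reads in the quizartinib libraries against 252 in the combination, a ratio of 133 (interval 36.8 to 1.1e+03), and THBS1 (thrombospondin), with a log2 fold change of 5.05 ± 1.33.

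Scavenger and clearance genes moved in both directions. CD163, the haemoglobin scavenger receptor of macrophages, had no read with quizartinib and stood at 0.496, 1.52 and 1.71 CPM with the combination, at least 23.9-fold higher by a floor of 3 counts over the group. MERTK, a receptor kinase for apoptotic cells, went from 2.26, 2.86 and 2.22 CPM to 10.48, 20.8 and 18.1 CPM, a log2 fold change of 2.75 ± 0.32 (adjusted p = 1.8e-05). C1QA, a chain of complement C1q, stood at 0.339, 0.312 and 0.212 CPM against 1.55, 1.52 and 1.86 CPM. These 3 were wholly above quizartinib. Of 15 measured efferocytosis and scavenger genes, 5 were called higher, among them STAB1 at a low level, and 1 lower, SCARB1 (log2 fold change -0.33 ± 0.08), with a median of 0.30. SCARB1 was not called without quizartinib replicate 1 or 3, or without combination replicate 2 or 3. CD36, a scavenger receptor for lipids, stood at 77.9, 93.4 and 63.9 CPM against 62.7, 26.5 and 23.9 CPM with combination replicate 1 the highest of its group, and was not called (-1.06 ± 0.38, adjusted p = 0.1).

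Every measured member of the MHC class II list was lower in the combination. These genes build the groove that presents peptides to CD4 T cells, and CIITA is the coactivator that their promoters need. CIITA (chr16:10866222-10943021, plus strand, GRCh38) stood at 102, 96.0 and 99.6 CPM with quizartinib and 27.2, 23.04 and 17.2 CPM with the combination, a log2 fold change of -2.15 ± 0.21 (adjusted p = 2.8e-06). HLA-DRA (chr6:32439842-32445046, plus strand), the shared alpha chain of HLA-DR, stood at 126, 121 and 119 CPM against 29.3, 20.6 and 20.8 CPM, a log2 fold change of -2.37 ± 0.23 (adjusted p = 2.5e-06). CD74, the invariant chain that guides class II molecules through the cell, stood at 733, 629.7 and 583 CPM against 164, 106 and 119 CPM, a log2 fold change of -2.32 ± 0.16 (adjusted p = 5.7e-08). Within each gene the groups were wide apart, and combination replicate 1 was the nearest to quizartinib. Of 12 listed genes 11 were measured, 11 were called lower and none higher, with a median log2 fold change of -2.71, or -2.42 with HLA-DQA1 at its bound. HLA-DQA1 had 17 reads with quizartinib and none with the combination, at least 5.37-fold lower. The smallest changes were those of HLA-DQB1 (-1.23 ± 0.14) and HLA-DMA (-1.60 ± 0.17), and HLA-DPA1 (-3.48 ± 0.32), HLA-DRB5 (-3.39 ± 0.36), HLA-DPB1 (-3.12 ± 0.36) and HLA-DRB1 (-2.98 ± 0.28) were the lowest after HLA-DQA1. HLA-DRB1 and HLA-DRB5 are near-identical copies, so the split of reads between them is uncertain. The count of 11 held without each of the 6 libraries in turn, and the fit of the 6 libraries alone called 10. Of MHC class I and immunoproteasome genes, 3 of 14 were called lower and none higher, with a median of -0.20, and 6 were lower in the fit of the 6 libraries alone. They were the light chain B2M (-0.46 ± 0.11), the loading factor TAPBP (-0.39 ± 0.08) and the proteasome subunit PSMB9 (-0.74 ± 0.16), and B2M lost its call without quizartinib replicate 1 (adjusted p = 0.05) or combination replicate 2 (adjusted p = 0.06).

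Class II promoters carry conserved X and Y boxes, where the RFX, CREB and NF-Y factors gather and CIITA docks. Their letters are printed from RefSeq promoters (GRCh38.p14, 250 bases before to 50 after the start), which hold 9 of the 11 measured class II genes and 10405 of the 16430 genes tested. The X box was searched as CC, any 5 bases, AC, any 2 bases, ATG, and the Y box as TGATTGG, on both strands, a choice made after the values were seen; the motifs share no letters where both were found. In capitals stand the matched letters, and all stretches run 5′ to 3′ on the minus strand. Each interval is chr6:32666726-32666787 for HLA-DQB1, chr6:32953158-32953219 for HLA-DMA, chr6:32941086-32941125 for HLA-DMB, chr6:32589877-32589916 for HLA-DRB1 and chr6:32530360-32530399 for HLA-DRB5.
HLA-DQB1: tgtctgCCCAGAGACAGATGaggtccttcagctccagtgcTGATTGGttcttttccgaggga
HLA-DMA: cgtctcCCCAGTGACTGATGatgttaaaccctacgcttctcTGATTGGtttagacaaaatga
HLA-DMB: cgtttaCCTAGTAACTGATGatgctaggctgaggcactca
HLA-DRB1: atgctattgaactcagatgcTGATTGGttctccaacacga
HLA-DRB5: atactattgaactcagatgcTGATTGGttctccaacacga
An X box followed by a Y box within 30 bases on one strand was found in 2 of the 10405 promoters (0.0192%), those of HLA-DQB1 and HLA-DMA. The X box motif alone stood in 2.05% of all promoters and in 3 of 9 class II promoters, and the Y box motif in 9.12% and in 4 of 9. HLA-DQB1 and HLA-DMA, with both motifs, were also the members with the smallest fall, as described above. Whether the motifs relate to the size of the fall was not tested. A match is a run of letters and not a measured site, and no match says only that these letters are not in that window.

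The same search, on both strands, was made for the glucocorticoid response element. The full palindrome AGAACA, any 3 bases, TGTTCT stood in none of the 10405 promoters. The shorter GNACA, any 3 bases, TGTNC, which every full palindrome contains, stood in 20 (0.192%), in 1 of the 567 promoters of genes called higher (0.176%) and in 1 of the 478 of genes called lower (0.209%). The holders among called genes were MAP3K6, a kinase of the stress cascade that was higher by 2.54 on the log2 scale, and HLA-DPA1. The interferon-response motif GAAA, any 2 bases, GAAA stood in 2.93% of all promoters, 2.65% of the higher and 3.56% of the lower genes, and the NF-kB motif GGG, any 5 bases, CC in 73.4%, 77.6% and 72%.

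Of 17 monocyte and macrophage genes 8 were called lower and 2 higher, with a median of -0.50. LYZ, the lysozyme gene of that list (chr12:69348341-69354234, plus strand, GRCh38), stood at 937, 892 and 1057 CPM with quizartinib and 210.3, 183 and 204 CPM with the combination, a log2 fold change of -2.27 ± 0.19 (adjusted p = 3.4e-07). MPEG1, the pore-forming perforin-2 of macrophages, stood at 121, 118 and 89.2 CPM against 26.4, 14.3 and 15.3 CPM, a log2 fold change of -2.56 ± 0.25 (adjusted p = 2.9e-06). DTX4, a ubiquitin ligase, stood at 99.8, 97.3 and 68.9 CPM against 21.8, 14.4 and 14.9 CPM, a log2 fold change of -2.38 ± 0.28. No library crossed the gap between groups in these 3 genes. The lectins CD209 (DC-SIGN) and CLEC10A, the receptor IGSF6, the long RNA AC131392.2 and FCGR2C were among the 12 lowest genes, with log2 fold changes from -2.86 to -2.31 and from 4.49 to 9.99 CPM in the quizartinib libraries. FCGR2B, an inhibitory Fc receptor nearly identical to FCGR2C, was lower as well (-3.11 ± 0.42), and the split of reads between that pair is uncertain. Of 6 myeloid genes picked because dexamethasone had lowered them in these data at 48 h, 5 were called lower, among them ENPP2 (autotaxin, -2.19 ± 0.28) and the adhesion receptor CD84 (-0.77 ± 0.15). Lower members of the monocyte and macrophage list included the co-stimulatory ligand CD86 (-1.58 ± 0.36), the Fc receptor FCGR1A (-0.98 ± 0.17), the alarmin S100A8 (-1.25 ± 0.30) and CSF1R, the receptor of macrophage growth factor (-0.82 ± 0.19). CSF1R lost its call without combination replicate 2 (adjusted p = 0.063). The higher members were CD163 and the lysosomal protease CTSB, at 143, 129 and 149 CPM against 216, 236 and 247 CPM. Among 14 myeloid transcription factors the lineage factors SPI1 (-0.47 ± 0.09) and IRF8 (-0.42 ± 0.09) were called lower and GFI1, a repressor needed for granulocytes, higher (0.40 ± 0.06), while CEBPA (-0.11 ± 0.13) and RUNX1 (0.13 ± 0.07) were not called. IRF8 had an adjusted p of 0.051 without quizartinib replicate 3. The fit of the 6 libraries alone called 6 of the 14 lower, beside 1218 of the 16430 genes. Of 9 granule genes the elastase ELANE was higher (0.55 ± 0.13) and cathepsin G lower (CTSG, -1.14 ± 0.17); ELANE lost its call without quizartinib replicate 2 (adjusted p = 0.077), combination replicate 2 (0.054) or combination replicate 3 (0.072).

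Receptors that guide and hold monocytes were lower on balance of calls. CX3CR1, the fractalkine receptor of patrolling monocytes, stood at 39.3, 36.4 and 42.2 CPM with quizartinib and 11.3, 8.54 and 8.80 CPM with the combination, a log2 fold change of -2.04 ± 0.25 (adjusted p = 3.6e-05). Of 14 measured chemokines and receptors 5 were called lower and 1 higher, with a median of -0.64; without combination replicate 3 the count of lower ones was 3. Also lower were CCR2 (-0.75 ± 0.13), CXCR2 (-0.45 ± 0.10) and CXCR3 (-1.40 ± 0.39), all chemokine receptors. The one higher was CXCR4, the homing receptor of marrow, at 227.1, 216 and 252 CPM against 344, 325 and 353 CPM. Of 17 integrins and adhesion genes 3 were called lower and none higher, with a median of -0.41. ITGAL, the alpha chain of LFA-1, stood at 620.4, 615 and 625 CPM against 249.7, 183 and 181 CPM, and combination replicate 1 was again the nearest to quizartinib. ITGB7, an integrin beta chain for gut homing, was lower too (-1.48 ± 0.14). The fit of the 6 libraries alone called 9 of the 17 lower, beside 1218 of the 16430 genes.

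**Figure D3:**
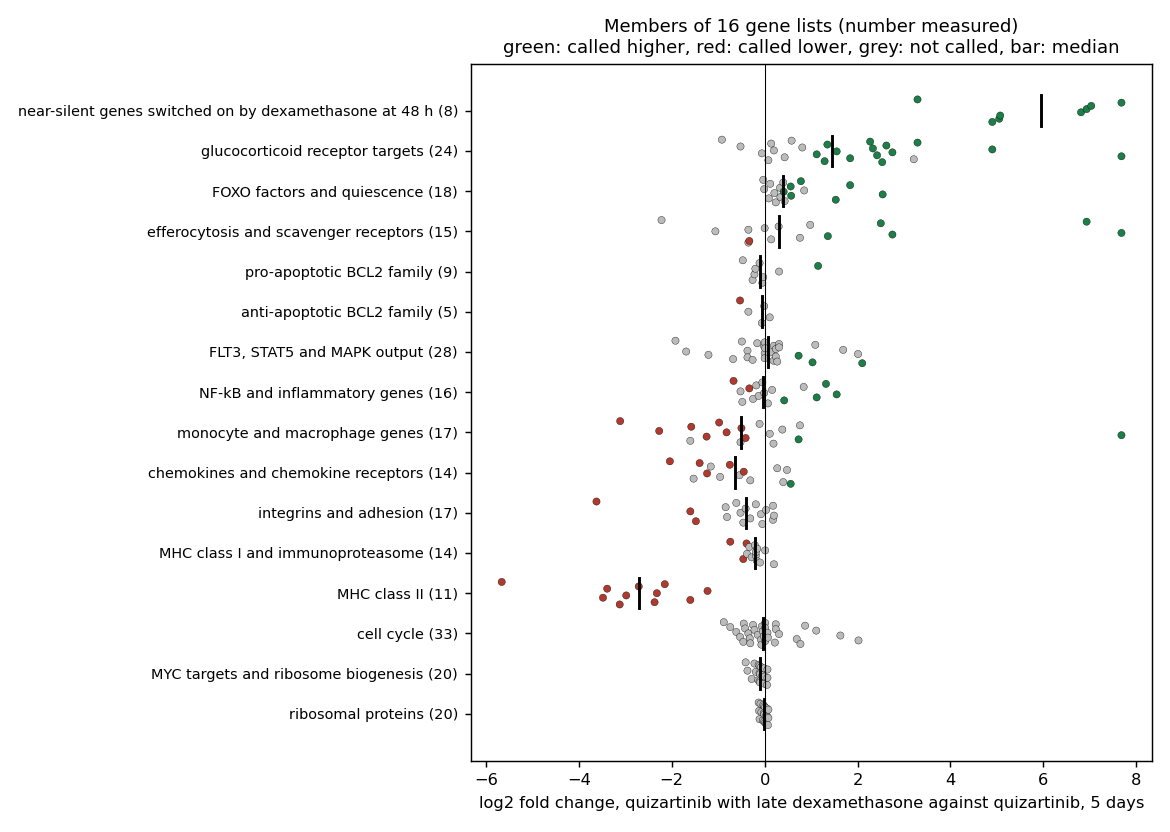
Log2 fold change of every measured member of 16 gene lists at 5 days (horizontal axis), with 1 row per list, the number measured in brackets and a bar at the median. Green points were called higher, red lower and grey neither; the glucocorticoid receptor targets lie mostly right of 0, all 11 MHC class II points are red and left of 0, and no point of the cell cycle, MYC target or ribosomal protein lists was called.

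Among the BCL2 family, which sets the threshold for apoptosis, 1 of 9 pro-apoptotic and 1 of 5 anti-apoptotic members were called. BCL2L11 encodes BIM, a BH3-only killer protein (chr2:111119378-111168447, plus strand, GRCh38). It stood at 32.9, 32.5 and 31.2 CPM with quizartinib and 59.3, 80.1 and 75.4 CPM with the combination, a log2 fold change of 1.15 ± 0.14 (adjusted p = 1.9e-05), and the groups did not overlap. It was the 1 of 9 pro-apoptotic members called, and 2 were called without combination replicate 2. BMF, another BH3-only gene, stood at 156, 137.9 and 128.2 CPM against 137.9, 129 and 142 CPM with overlapping groups. BCL2, the guardian protein that BIM binds, stood at 183, 194 and 173 CPM against 142, 124 and 115 CPM, a log2 fold change of -0.53 ± 0.15 with an adjusted p of 0.041. Its groups did not overlap, but the call was lost in 5 of the 6 fits that left out a library of 5 days. The adjusted p was then 0.12, 0.14 and 0.076 without quizartinib replicates 1, 2 and 3, and 0.14 and 0.17 without combination replicates 2 and 3; it was 0.13 without TMM scaling. BCL2 was the 1 of 5 measured anti-apoptotic members called. MCL1, at 385, 373 and 484 CPM against 328, 441 and 421 CPM, and BCL2L1, at 21.1, 19.1 and 20.7 CPM against 21.1, 20.3 and 19.3 CPM, had overlapping groups and were not called. Among 15 measured genes of the p53 target list the stress-response gene SESN1 was called higher, and the cell cycle inhibitor CDKN1A was not called (-0.01 ± 0.38).

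FLT3 itself, the target of quizartinib, was called higher. It stood at 483, 509 and 475 CPM with quizartinib and 729, 643 and 681 CPM with the combination, a log2 fold change of 0.49 ± 0.08 (adjusted p = 0.0011), with the groups apart. Of 28 measured genes of FLT3, STAT5 and MAPK output, 3 were called higher and none lower, with a median of 0.07; the fit of the 6 libraries alone called 4 lower. They were the STAT feedback inhibitor SOCS1, at 2.93, 1.67 and 2.06 CPM against 8.62, 9.75 and 10.1 CPM, the cyclin CCND3 (0.73 ± 0.10) and the survival kinase PIM1 (1.03 ± 0.27). PIM1 lost its call in 5 of the 6 fits that left out a library, with adjusted p from 0.059 to 0.086; it held without combination replicate 1. The STAT5 targets CISH (0.13 ± 0.10), SOCS2 (0.24 ± 0.09) and PIM2 (0.01 ± 0.13) were not called. MYC stood at 309, 266 and 322 CPM against 234, 225 and 236 CPM with no overlap, a log2 fold change of -0.37 ± 0.15 and an adjusted p of 0.15, which became 0.0077 in the fit of the 6 libraries alone, 0.0034 when replicates 3 of 48 h were dropped, 0.021 with the replicate block at 48 h and 0.034 with the block at both times. Among 14 cytokine receptors FLT3 and the interferon receptor chain IFNGR1 (0.73 ± 0.09) were called higher, and CSF1R and the interleukin 3 receptor chain IL3RA (-0.90 ± 0.19) lower.

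Of 18 measured genes of the FOXO and quiescence list 7 were called higher and none lower, with a median of 0.40. PIK3IP1, an inhibitor of PI3K, stood at 13.7, 10.6 and 10.9 CPM with quizartinib and 64.7, 70.2 and 69.9 CPM with the combination, a log2 fold change of 2.54 ± 0.15 (adjusted p = 6.4e-09). INSR, the insulin receptor, stood at 236, 232 and 255 CPM against 643, 733 and 707 CPM, a log2 fold change of 1.53 ± 0.10 (adjusted p = 2.8e-08). In both genes the spread within a group was small beside the gap. IRS2, FOXO3 (0.57 ± 0.11), FOXO4 (0.41 ± 0.11), SESN1 (0.56 ± 0.12) and SESN3 (0.78 ± 0.12) were the other called members. IGF1, an insulin-like growth factor outside that list, was called lower: it stood at 608, 663 and 629 CPM against 527, 477 and 409 CPM (log2 fold change -0.43 ± 0.12, adjusted p = 0.041). Its call was lost in 5 of the 6 fits that left out a library, with adjusted p from 0.091 to 0.2, and without TMM scaling (0.14).

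Innate immune genes split, and their counts stand beside 4.6% of all genes called higher and 4.04% lower. Of 16 measured NF-kB and inflammatory genes 4 were called higher and 2 lower, with a median of -0.03. Besides the inhibitors NFKBIA and TNFAIP3, the higher ones were the subunit REL (0.42 ± 0.08) and IL18, a cytokine of the inflammasome, at 13.8, 15.1 and 12.6 CPM against 35.8, 36.3 and 31.6 CPM. The lower ones were the subunit RELB (-0.67 ± 0.16) and the inflammasome sensor NLRP3 (-0.33 ± 0.08). Of these 2, 0 were called without quizartinib replicate 3, and 1 without quizartinib replicate 1 or combination replicate 1 or 3. Of 10 Toll-like receptors and adaptors 3 were called higher and 1 lower, and 5 and 2 in the fit of the 6 libraries alone. TLR4, the sensor of lipopolysaccharide, stood at 12.8, 12.7 and 19.98 CPM against 34.0, 30.9 and 29.4 CPM, and IRAK3, which brakes its signal, was higher as well (0.45 ± 0.08). TLR1 was lower (-0.91 ± 0.19), and TLR5, called at an adjusted p of 0.049, lost its call without any 1 of the 6 libraries. Of 20 interferon-stimulated genes 1 was called higher, ISG20 (2.43 ± 0.29), which is near the share of all genes. Of 11 complement genes CFD, complement factor D, was lower, at 1464, 1181 and 955 CPM against 817, 535 and 681 CPM. Among 15 surface targets CD276 (B7-H3) was higher (1.20 ± 0.18), IL3RA and the inhibitory receptor LILRB1 (-0.64 ± 0.12) were lower, and the antibody target CD33 was not called.

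Metabolic programmes changed at single genes, and their list counts stand beside 4.6% of all genes called higher and 4.04% lower. SLC7A11, the cystine importer, stood at 16.9, 20.04 and 18.6 CPM with quizartinib and 4.53, 5.38 and 4.23 CPM with the combination, a log2 fold change of -1.98 ± 0.18 (adjusted p = 1.7e-06). CHAC1, which degrades glutathione, stood at 3.44, 2.65 and 3.65 CPM against 11.8, 11.5 and 14.7 CPM, a log2 fold change of 1.96 ± 0.19 (adjusted p = 2.8e-06). Both belong to a list of 18 genes of ATF4 and the amino acid response, of which 4 were called higher and 1 lower, with a median of 0.09; without quizartinib replicate 1 or 2 the count of higher ones was 2. Among 22 sterol and fatty acid genes the regulator SREBF2 was called lower (-0.40 ± 0.09). Among 21 lysosome and autophagy genes CTSB and GABARAPL1 were higher and CTSZ lower, and of 10 metallothionein and zinc genes 3 were higher (MT2A, MT1E and the zinc exporter SLC30A1), with 1 or 2 of them in each fit that left out a library of 5 days. MT1E lost its call in 4 of these 6 fits and SLC30A1 in 3. Of 12 heat shock genes HSPB1 was lower (-0.63 ± 0.12), and of 11 genes of the stem and MLL fusion programme HOXA9 was higher (0.44 ± 0.12) and MEIS1 was not called (-0.03 ± 0.07). HOXA9 lost its call without quizartinib replicate 1 (adjusted p = 0.065) or 2 (0.11), or combination replicate 2 (0.13) or 3 (0.06). Growth and energy genes gave no call in edgeR's test: 0 of 20 MYC targets and ribosome biogenesis genes (1 at an unadjusted p under 0.05, 0 by DESeq2, where 10.7% of all genes were higher and 10.2% lower at that unadjusted p), 0 of 20 ribosomal proteins (0 and 0), 0 of 19 glycolysis genes (1 and 1), 0 of 16 nuclear genes of oxidative phosphorylation (2 and 1) and 0 of 13 mitochondrially encoded genes (0 and 0). Their medians lay between -0.11 and -0.01. The fit of the 6 libraries alone called 4 glycolysis genes and 2 MYC target and ribosome biogenesis genes lower, and 1 nuclear gene of oxidative phosphorylation higher.

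The immediate early genes, which answer growth and stress signals fast, showed a gap between groups that the test over 18 libraries did not call. EGR1 stood at 172, 109 and 197 CPM with quizartinib and 36.6, 39.9 and 49.7 CPM with the combination, and FOS at 621, 480.2 and 610.4 CPM against 213, 236 and 291 CPM. EGR3 stood at 11.5, 3.28 and 17.7 CPM against 0.868, 1.27 and 0.999 CPM. In 9 of 17 listed members, these 3 included, the combination lay wholly below quizartinib, beside 16.7% of all genes. The standard errors were wide, at -1.92 ± 1.34 for EGR1 and -1.21 ± 1.30 for FOS, and the fit over 18 libraries includes the replicates 3 of 48 h, whose summed level of these genes stood apart as given above. In that fit edgeR called 0 of 17 (0 at an unadjusted p under 0.05, 0 by DESeq2), and it called 10 lower in the fit of the 6 libraries alone, 10 when replicates 3 of 48 h were dropped and 7 with the replicate block at 48 h.

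The same drug pair was sampled at 48 h, in libraries that share nothing with those of 5 days, so the effect of dexamethasone on top of quizartinib could be set side by side. At 48 h 924 genes (5.62%) were called higher and 761 (4.63%) lower, or 1002 and 834 without the replicates 3 of 48 h. Without TMM scaling they numbered 612 and 1478, with the median log2 fold change over all genes at -0.13 and the median difference, 5 days minus 48 h, at 0.16. Of the 755 genes higher at 5 days 504 were also higher at 48 h, which is 66.8% of the 5 day and 54.5% of the 48 h list, and of the 664 lower genes 462 were also lower, 69.6% and 60.7%. The opposite call was found for 0 of the higher and 1 of the lower genes. Of all 1419 genes called at 5 days (8.64%), 98.7% had the same sign at 48 h. Across all 16430 genes the 2 sets of log2 fold changes had a Pearson r of 0.65 and a Spearman rho of 0.52, and across the 10702 genes at 5 CPM or more 0.79 and 0.66. These describe genes, which are not independent replicates. With dexamethasone alone against DMSO at 48 h, where 904 genes (5.5%) were higher and 1089 (6.63%) lower, the shared calls were 369 higher (48.9% of the 5 day and 40.8% of the other list) and 350 lower (52.7% and 32.1%), and 295 higher and 287 lower genes were common to all 3 comparisons.

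Side by side stood the values of leading genes in cells that had spent 48 h or 5 days in quizartinib. FKBP5 had a log2 fold change of 3.15 at 48 h and 3.29 at 5 days, BCL2L11 1.02 and 1.15, GRB10 3.69 and 3.68, CD74 -2.32 and -2.32, and LYZ -2.49 and -2.27. The class II list was called lower in 11 of 11 at both times, with a median of -3.46 at 48 h and -2.71 at 5 days, and a median difference of 0.49 beside -0.01 over all genes. No member was called different between times, while 6 of 11 differed upwards (a smaller fall at 5 days) at an unadjusted p under 0.05, as did 1.52% of all genes. SLC7A11 stood at -2.27 and -1.98 with quizartinib, beside 0.64 with dexamethasone alone. CX3CR1 stood at -2.45 and -2.04 with quizartinib, beside -0.17 with dexamethasone alone, and the difference from dexamethasone alone was not tested for either gene.

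**Figure D4:**
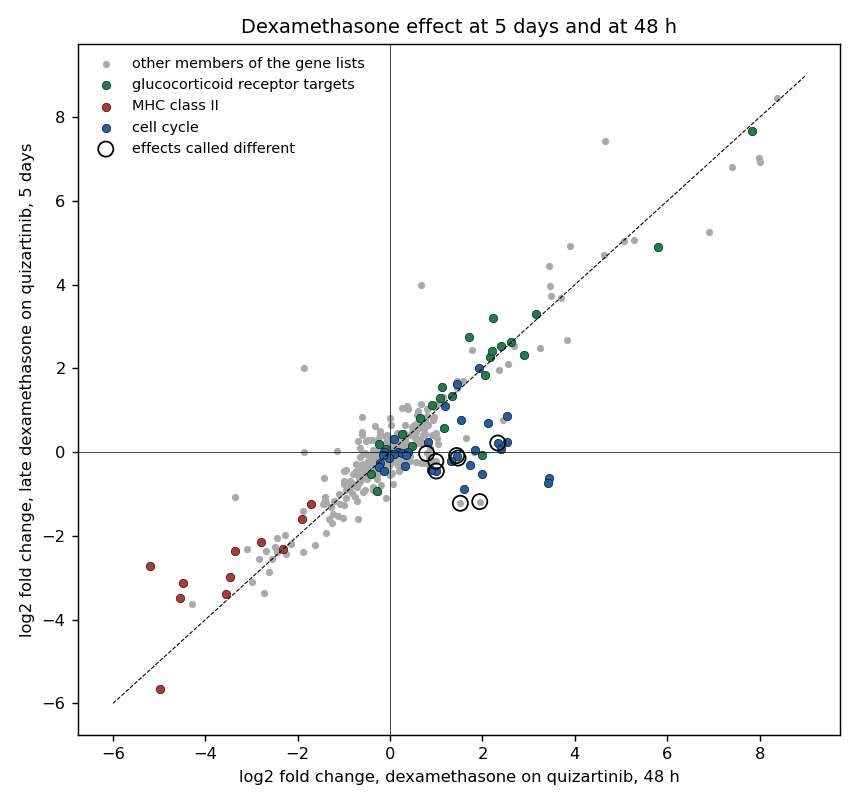
Log2 fold change of dexamethasone on quizartinib at 5 days (vertical axis) against that at 48 h (horizontal axis) for members of the gene lists and the named genes; the dashed line marks equal effects. Glucocorticoid receptor targets (green) lie mostly along it and MHC class II genes (red) mostly above it, with a smaller fall at 5 days. Cell cycle genes (blue) lie mostly to its right, and the 8 genes whose effects were called different are ringed.

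The contrast of both effects, 5 days minus 48 h, called 8 of 16430 genes lower (0.0487%) and 0 higher in edgeR's test; at an unadjusted p under 0.05 there were 389 lower (2.37%) and 249 higher (1.52%), and DESeq2 called 39 lower and 0 higher. Of the 8, MKI67, TOP2A and CCNB2 are in the cell cycle list, and the roles of the others are given with their values known. MKI67, which coats mitotic chromosomes and marks cycling cells, stood at 5.29, 5.53 and 8.37 CPM with quizartinib and 31.8, 31.8 and 33.5 CPM with the combination at 48 h. At 5 days it stood at 1.19, 0.885 and 1.27 CPM and 0.806, 1.33 and 1.67 CPM, from 62 and 69 reads in each group together. The groups were apart at 48 h and overlapped at 5 days, and the effects differed by -2.11 ± 0.33 on the log2 scale (adjusted p = 0.02). CENPF, a kinetochore protein, stood at 10.8, 9.11 and 14.3 CPM against 31.8, 30.4 and 33.2 CPM at 48 h and 6.83, 7.86 and 6.93 CPM against 6.14, 5.89 and 7.47 CPM at 5 days, a difference of -1.62 ± 0.21 (adjusted p = 0.0036). CIT, the citron kinase of cytokinesis, stood at 4.93, 4.91 and 5.32 CPM against 10.9, 9.38 and 9.88 CPM at 48 h and 8.58, 9.00 and 8.62 CPM against 8.06, 8.04 and 6.57 CPM at 5 days, a difference of -1.20 ± 0.14 (adjusted p = 0.0026). In both, dexamethasone came with higher levels at 48 h and not at 5 days. IQGAP3, a scaffold of dividing cells, was called higher at 48 h (1.94 ± 0.23) and lower at 5 days (-1.18 ± 0.35, adjusted p = 0.046, from 63 against 26 reads), a difference of -3.12 ± 0.42. TOP2A, the topoisomerase of replication, and TPX2, a spindle factor, differed by -1.52 ± 0.25 and -0.83 ± 0.14. CDCA5 (sororin, -2.74 ± 0.41) and CCNB2 (a mitotic cyclin, -1.45 ± 0.19) lay under 5 CPM and are named here with their values known. With DMSO these genes stood far above every quizartinib library, MKI67 at 1023, 928 and 821 CPM.

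**Figure D5:**
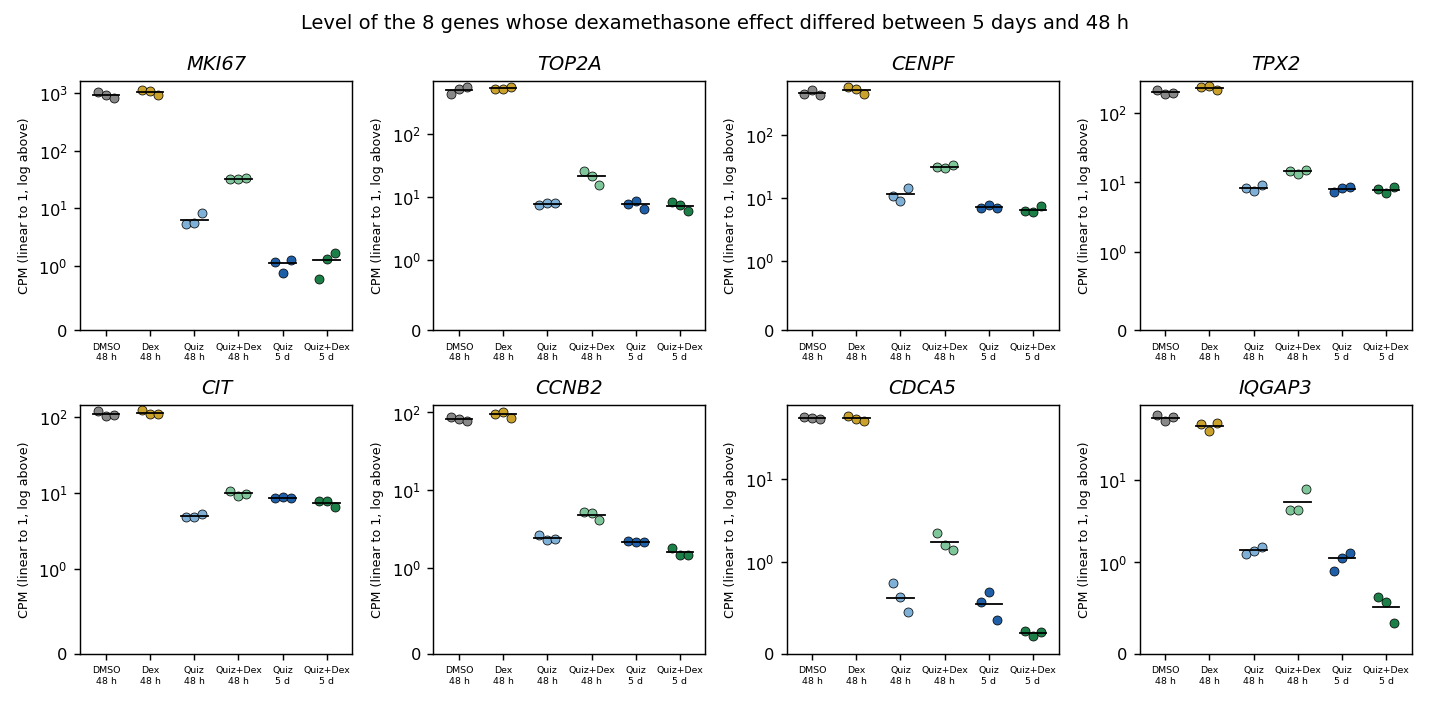
Levels in CPM (linear up to 1, log above) of the 8 genes whose dexamethasone effect differed between 5 days and 48 h, in the 18 libraries of the 6 groups; points are libraries and bars are group means. DMSO and dexamethasone alone are highest in every panel, the combination of 48 h lies above quizartinib of 48 h, and at 5 days the combination lies level with or below quizartinib.

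Of 33 cell cycle genes 19 were called higher and none lower with dexamethasone on quizartinib at 48 h, with a median of 1.18, and 0 were called at 5 days, with a median of -0.04 (2 higher and 5 lower at an unadjusted p under 0.05, and 1 and 1 by DESeq2). The difference of the effects, 5 days minus 48 h, was below 0 in 28 of the 33, beside 8377 of 16430 genes. Its median was -0.65 in the list, beside -0.01 over all genes. A difference below 0 can be a smaller rise or a larger fall at 5 days. For MKI67, TOP2A and CCNB2 the difference was called. Of 13 CDK inhibitors and pocket proteins RB1 was called higher at 5 days (0.38 ± 0.09) and none lower, and RB1 lost its call without quizartinib replicate 1 (adjusted p = 0.073) or combination replicate 2 (0.079). The share of reads from the small RNAs 7SK and 7SL moved as well: it was 17.1%, 16.0% and 18.8% with quizartinib and 22.1%, 21.5% and 31.6% with the combination at 48 h, and 21.4%, 19.8% and 18.8% against 16.5%, 17.4% and 22.1% at 5 days. Without their counts 7 genes still differed. CENPF, CIT and IQGAP3 were called in all 22 alternative fits, CCNB2 in 20, CDCA5 in 16, MKI67 in 15, TOP2A in 11 and TPX2 in 7. The count of 8 became 4 without quizartinib replicate 1 or combination replicate 2 of 5 days, and 5 without quizartinib replicate 2 or combination replicate 3 of 5 days, without quizartinib replicate 1 or 2 of 48 h, or without combination replicate 1 of 48 h. It was 3 in a fit of these 12 libraries alone and 25 when replicates 3 of 48 h were dropped. At 48 h the libraries numbered 3 went together across groups, while numbers 1 and 2 were not clearly told apart. With a replicate block at 48 h the count was 21, and with the block at both times it was 19. The arms differ in the length of quizartinib treatment as well as in the timing of dexamethasone, and these cannot be told apart.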

How the data were processed

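RNA-seq counts of 18 libraries of MV4-11 cells in 6 groups of 3 were used; the 8 libraries of the recovery experiment were not used here. The deposited tables hold whole-number counts per gene whose library totals differ, so they were taken as raw counts. The submitters' processing notes list the build GRCh38 and the tools CASAVA, STAR 2.7.3, RSEM, edgeR and DESeq2, with no role or order. How estimates became whole numbers, and whether strand was used in counting, is not given in the sources used here, so overlapping and near-identical genes are uncertain. Of 16430 entries, 14051 are named in the files, 2263 were named by identifier from GENCODE 29 and 116 kept the identifier; for 8 the files give a date where the symbol belongs. Each had reads in at least 4 libraries. Depth was 14795190 to 21325569 counts in the libraries of 5 days, and intervals and floors (3 counts over a group) cover counting error only.

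The quasi-likelihood model of edgeR 4.0.16 (R 4.3.3), with TMM factors, was fitted over all 18 libraries and kept all 16430 genes under filterByExpr. Contrasts were combination against quizartinib at 5 days and at 48 h, their difference, and dexamethasone against DMSO. A gene was called at an adjusted p under 0.05. Values after ± are standard errors of log2 fold changes derived from the test. Each is the absolute log2 fold change divided by the square root of the quasi-likelihood F. For 1 gene taken alone, the smallest p of an exact permutation test on 3 against 3 libraries is 0.1, so only the model's p-values are given. The scripts were tested on simulated data.

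The comparison, its members and the 43 gene lists were chosen with earlier results of these data known. Genes named by rule were 24 core genes, the 12 highest and 12 lowest called genes with at least 5 CPM in the higher group and no overlap between groups, up to 4 called members per list with the smallest adjusted p, and for the difference up to 8 per direction at 5 CPM or more. A few list members are counted but not reported here by name. Other list members, and the X box and Y box motifs, were chosen with the values known. Alternatives were RLE factors, no TMM, DESeq2 1.42.0, no filter, a filter at 1 CPM in 3 libraries, the libraries of the contrast alone, no libraries numbered 3 at 48 h, no 7SK and 7SL counts, a replicate block at both times or, added after the data were seen, at 48 h only, each library left out, and a fold of at least 2. Equal replicate numbers did not pair libraries of 5 days: over 10445 genes their deviations from the group means had r of 0.103, -0.007 and 0.116. Between quizartinib and the combination at 48 h they had r of 0.208, 0.344 and 0.352. Quizartinib replicate 1 with combination replicate 2 had 0.228, and quizartinib replicate 2 with combination replicate 1 had 0.128. A replicate 3 with a replicate 1 or 2 had r from -0.348 to -0.205. The replicates 3 thus went together, while a pairing of numbers 1 and 2 is not settled, and the block at 48 h rests on the numbers. Python 3.11.15 was used with pandas 2.3.3 for tables and matplotlib 3.10.9 for plots.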

Additional observations from a re-analysis of the deposited data

Results flagged for a closer look

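In 8 genes the dexamethasone effect on top of quizartinib differed between 5 days and 48 h by a test of the difference itself, edgeR's quasi-likelihood test over 16430 genes. The difference, 5 days minus 48 h on the log2 scale, was -3.12 for IQGAP3, -2.74 for CDCA5, -2.11 for MKI67, -1.62 for CENPF, -1.52 for TOP2A, -1.45 for CCNB2, -1.20 for CIT and -0.83 for TPX2. All 8 were called higher at 48 h, and at 5 days IQGAP3 was called lower and the other 7 were not called. In absolute terms the levels at 5 days were low, between 0.190 and 9.00 CPM over these genes and the 6 libraries.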

How the results depend on the processing

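RLE factors, no filter, the filter at 1 CPM and no 7SK and 7SL counts left all 3 counts of the report within 1.5 times, and DESeq2 did so for both counts of 5 days (874 higher, 801 lower). Higher and lower genes at 5 days numbered 1212 and 1218 in the fit of the 6 libraries alone, and 1403 and 1355 when replicates 3 of 48 h were dropped. With 1 library left out they ranged from 463 to 643 and from 355 to 574. The 8 genes whose effects differed became 4 without TMM, 3 in the fit of the 12 libraries of that contrast alone, 25 when replicates 3 of 48 h were dropped, 39 with DESeq2, and 4 to 11 with 1 library left out. Equal replicate numbers share only a number at 5 days, and at 48 h only the replicates 3 clearly went together across groups. With the replicate block at both times the 3 counts were 943, 891 and 19, and with the block at 48 h only 946, 909 and 21. At least 2-fold changes ranged from 220 to 280 higher and from 127 to 194 lower with 1 library left out.

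Signs turned in 5 genes that were not called. BCL2L1 was 0.02 without TMM, and 0.00 with the filter at 1 CPM and when replicates 3 of 48 h were dropped. With 1 library of 5 days left out, log2 fold changes ranged from -0.04 to 0.03 for BCL2L1, from -0.12 to 0.37 for DUSP1, from -0.10 to 0.04 for BMF, from -0.14 to 0.07 for MCL1 and from -0.06 to 0.44 for MKI67. The causes were not tested. Counts of the cell cycle list at 48 h (16 to 22 of 33 higher) and in the difference (0 to 8) were computed under the alternatives after seeing the data. Genes under about 1 CPM rest on few reads, so a gene not called may differ. The same holds for small changes at higher levels. In simulated counts at 5 CPM or more, 26 of 50 changes of 1.5-fold and 46 of 50 of 2-fold were called. The simulation changed 50 of 16430 genes at each of 1.5, 2, 4 and 8-fold, while 1419 genes were called in the data. Its counts were drawn independently, without the shift of the replicates 3 of 48 h. The shares called there need not hold in these data.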
